A study of Mus musculus with 4 samples.

Results

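Amino acid carriers of 7 mouse solute carrier families were compared between M1- and M2-polarized macrophages: SLC1, SLC3, SLC6, SLC7, SLC36, SLC38 and SLC43. They were chosen by symbol, as the protein-coding genes named Slc followed by one of these family numbers, the letter a and a digit. That pattern took 64 of the 49315 genes in the count table. Of the 64, 63 are family members and 1, Slc7a6os, is an opposite-strand neighbour of Slc7a6 that matches the pattern by name and is no carrier. A further 3 antisense RNA genes matched the pattern but are not protein-coding and were left out.

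The data are poly(A)-selected RNA-seq of bone marrow-derived macrophages (BMDMs) from Lyz2Cre+ mice, in 4 libraries. M1 macrophages (n = 2) received LPS at 100 ng/ml with IFNg at 50 ng/ml, and M2 macrophages (n = 2) received IL-4 at 10 ng/ml with IL-13 at 10 ng/ml. All 4 libraries share the Cre allele, which is driven by the myeloid lysozyme 2 locus, 7 days of culture in medium with L-cell supernatant, and 24 h of polarization in serum-free medium. The labels do not say whether the 2 libraries of a group came from separate mice or cultures, so each p-value reflects library-to-library spread alone, and that spread may be technical. They also do not give the animals' age or whether these libraries received erlotinib, an EGFR inhibitor used in the study, and no unpolarized library was analysed here. A difference between M1 and M2 therefore does not tell which of the groups moved from an unpolarized state.

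Amino acid carriers set which amino acids a cell takes up, exchanges or releases from its lysosomes. Some work alone, such as the sodium-coupled carriers of SLC1, SLC6 and SLC38. Others are light chains of SLC7 that need a heavy chain, CD98 (Slc3a2), to reach the cell surface. In macrophages the carriers are best known for supplying arginine to nitric oxide synthase and arginase, and cystine for glutathione.

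Library totals were 34445668 and 28407982 counts in M1 and 26806370 and 39506242 counts in M2. As a check of the labels, Nos2, which makes nitric oxide, had 8030 and 7253 CPM (counts scaled to the TMM-adjusted library total) in M1 and 10.6 and 9.65 CPM in M2. Mrc1, the mannose receptor CD206, had 2.88 and 2.03 CPM in M1 and 1057 and 1011 CPM in M2, so both polarization labels matched these genes. The 7 macrophage markers together had 5170 and 4950 CPM in M1 and 4442 and 4331 CPM in M2. That sum hides opposite differences. Csf1r was 6.21-fold and Cd68 10.5-fold lower in M1, while Adgre1, Itgam, Lyz2, Mertk and Fcgr1 were higher in M1. Adgre1 alone had 3053 and 3121 CPM in M1 and 1364 and 1291 CPM in M2. Lyz2 had 25.2 and 27.3 CPM in M1 and 6.51 and 6.88 CPM in M2. Markers of other cells also moved with the groups. The 6 fibroblast markers, none of them at 0, summed to 119 and 110.5 CPM in M1 and 1137 and 1162 CPM in M2; the collagens Col1a1, Col1a2 and Col3a1 made up most of the sum and were lower in M1, as was Pdgfra, while Dcn and Lum were higher in M1. The 4 dendritic cell markers summed to 32.8 and 33.6 CPM in M1 and 2.52 and 2.10 CPM in M2, with Xcr1 alone at 30.9 and 31.9 CPM in M1; Flt3 was also higher in M1, Zbtb46 was lower and Siglech was not tested. The 5 mast cell and basophil markers summed to 7.27 and 6.71 CPM in M1 and 0.702 and 0.955 CPM in M2, nearly all of it Kit in M1, with Mcpt8 lower in M1, Ms4a2 at 0 in all libraries and Fcer1a at 0 in M1. The part of these markers in the carrier results was not tested, and in bulk samples fewer cells of a type and less RNA per cell cannot be told apart.

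Of the 64 genes, 52 had at least 1 count and 12 had none in any library. The low-count filter left 35 to test and 29 untested. Of the 35, 10 were higher in M1, 19 were lower in M1 and 6 were not called, at an edgeR adjusted p under 0.05. Called genes were thus 82.9% of the tested members, against 77.2% of the 14656 genes tested in all. Over all genes 37.5% were higher in M1 and 39.7% were lower in M1. The call rate of the members was near this background. Changes of at least 2-fold were called in 19 of the tested members (54.3%), 7 higher and 12 lower in M1. The same rule called 40.7% of all tested genes, 18.2% higher and 22.5% lower in M1. The median log2 fold change of M1 over M2 was -0.48 over the 35 members and -0.04 over all tested genes. Setting Slc7a14, which had no count in M1, at its bound could not move the member median. Both the fitted value and the bound of Slc7a14 lie below that median. The median absolute log2 fold change was 1.15 over the members and 0.757 over all genes. Scaling by library totals alone moved the median of all genes by -0.45 and left 28.1% of all calls higher in M1, against 48.6% with TMM scaling. Under it 25% of the member calls were higher in M1, against 34.5%. Of the 35, 9 passed the filter through one group only: Slc6a19 through M1, and Slc1a6, Slc6a4, Slc7a3, Slc7a4, Slc7a14, Slc7a15, Slc36a2 and Slc38a4 through M2. Passing this way favours a call in that direction, so the calls of these members support nothing about their families, and Slc7a3 and Slc6a4 were not called.

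**Figure D1:**
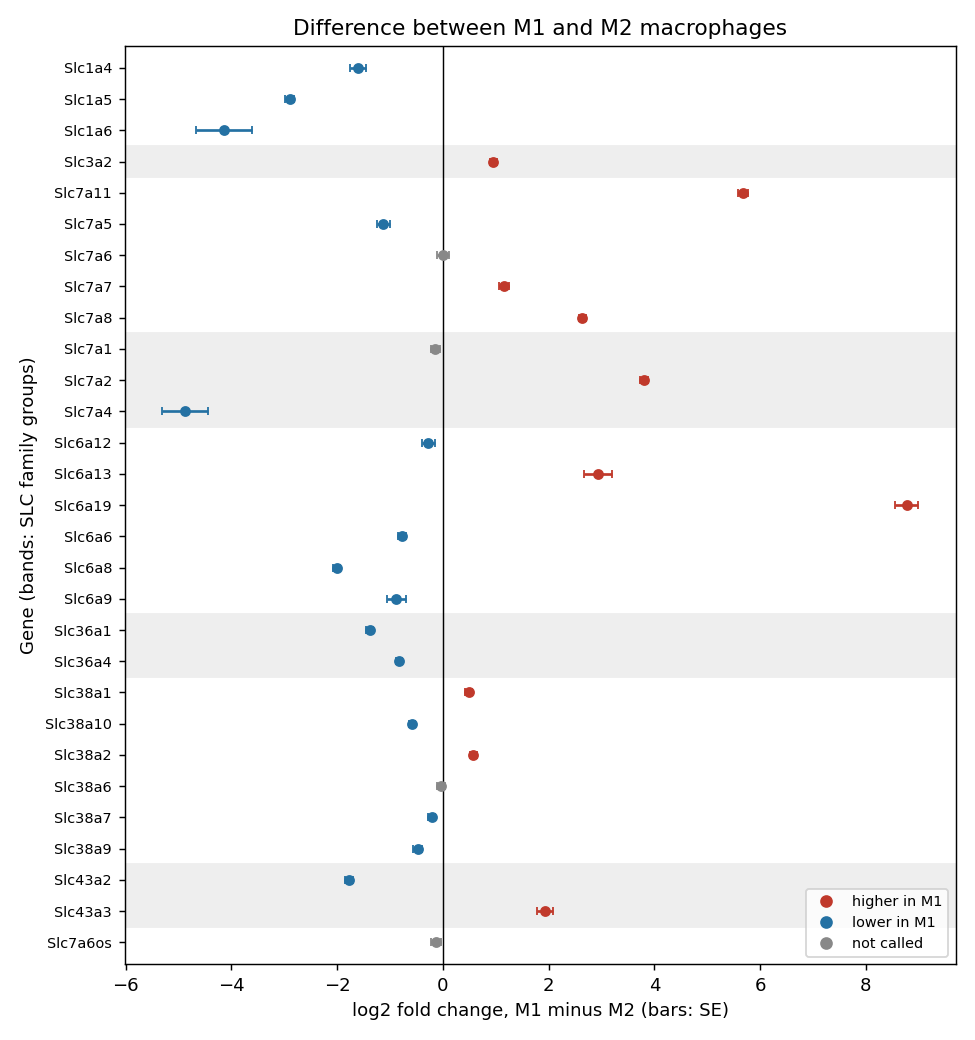
Log2 fold change of M1 over M2 for the 29 members with at least 1 CPM in a group, with bars of 1 standard error from the edgeR fit. Slc6a19, Slc7a11 and Slc7a2 lie farthest to the M1 side and Slc7a4, Slc1a6 and Slc1a5 farthest to the M2 side. Of these, Slc6a19 passed the filter through M1 alone, with 5 counts over M2. Slc7a4 and Slc1a6 passed it through M2 alone, with 4 and 3 counts over M1.

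The CD98 heavy chain and its light chains were, in sum, higher in M1, and the make-up of the light chains differed. The cystine exchanger Slc7a11 and the neutral amino acid exchanger Slc7a8 were the most abundant light chains in M1. Slc7a8 and the large neutral amino acid exchanger Slc7a5 were the most abundant in M2. The heavy chain itself differed by less than 2-fold.

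Slc3a2 (chr19:8706882-8723369, minus strand, GRCm38) had 748 and 756 CPM in M1 and 389.7 and 387 CPM in M2. All M1 values lay above all M2 values, a log2 fold change of 0.95 with a standard error of 0.07 (edgeR adjusted p = 2.89e-09). Slc7a11 (ENSMUSG00000027737, chr3:49892526-50443614, minus strand) encodes xCT, which imports cystine in exchange for glutamate. It had 964 and 879 CPM in M1 and 18.2 and 17.8 CPM in M2, with no overlap between the groups. It was 51.2-fold higher in M1, a log2 fold change of 5.68 with a standard error of 0.09 (edgeR adjusted p = 5.64e-17).

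The promoter of Slc7a11 is shown with those of Slc7a7 and Slc1a4 because these are the tested members whose window holds the letters TGATGNAA, the core of the composite site of ATF4 and C/EBP factors. Capitals mark each match on either strand. The windows are RefSeq sequence of GRCm38.p6, 250 bases before to 50 bases after a gene start, all on the minus strand: chr3:50443564-50443863 for Slc7a11, chr14:54417895-54418194 for Slc7a7 and chr11:20332664-20332963 for Slc1a4.
Slc7a11: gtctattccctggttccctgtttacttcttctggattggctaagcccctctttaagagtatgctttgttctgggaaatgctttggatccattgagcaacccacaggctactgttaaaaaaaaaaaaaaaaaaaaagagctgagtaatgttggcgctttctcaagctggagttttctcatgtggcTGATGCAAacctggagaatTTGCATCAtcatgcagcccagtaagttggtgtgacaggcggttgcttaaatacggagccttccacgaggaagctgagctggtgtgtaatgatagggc
Slc7a7: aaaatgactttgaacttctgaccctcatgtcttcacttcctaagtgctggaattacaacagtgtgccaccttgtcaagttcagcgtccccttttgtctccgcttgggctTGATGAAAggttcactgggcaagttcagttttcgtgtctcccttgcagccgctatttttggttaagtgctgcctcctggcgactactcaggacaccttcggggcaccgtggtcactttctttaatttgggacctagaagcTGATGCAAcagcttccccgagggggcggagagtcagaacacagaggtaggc
Slc1a4: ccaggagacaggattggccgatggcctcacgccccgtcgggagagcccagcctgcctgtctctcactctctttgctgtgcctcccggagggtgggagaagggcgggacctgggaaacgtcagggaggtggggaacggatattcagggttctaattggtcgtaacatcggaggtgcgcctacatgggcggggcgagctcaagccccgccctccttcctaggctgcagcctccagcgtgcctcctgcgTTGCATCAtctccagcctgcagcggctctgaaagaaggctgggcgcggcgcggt
Slc7a11 held 2 matches, 66 and 47 bases before its start. The Slc7a7 window, 1 of 5 listed for the gene, held 2, at 141 bases and 1 base before the start, and Slc1a4 held 1, at 4 bases before. Slc7a11 and Slc7a7 were higher in M1 and Slc1a4 was lower in M1, so the letters occurred on both sides. TGATGNAA was present in 3.97% of all 32851 promoter windows and in 5 of the 67 windows of the 46 members that the table lists, including 1 of the untested Slc6a21. The core of the NRF2 antioxidant site, TGACNNNGC, was in 12.4% of all windows and in 11 of the 67. Both strands were read for each, no overlap between these motifs was removed, and a match is a description of letters only.

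Slc7a8 (chr14:54722209-54781946, minus strand), the light chain LAT2, had 293 and 270.1 CPM in M1 and 45.3 CPM in each M2 library. It was 6.22-fold higher in M1, a log2 fold change of 2.64 with a standard error of 0.07 (edgeR adjusted p = 1.84e-14). Slc7a7 (chr14:54369442-54417780, minus strand), the light chain y+LAT1 that exports cationic amino acids, had 28.6 and 24.5 CPM in M1 and 11.5 and 12.5 CPM in M2. It was higher in M1 by 1.15 on the log2 scale with a standard error of 0.10 (edgeR adjusted p = 2.92e-08). Its exons overlap 232 bases of those of the opposite-strand gene Oxa1l, and the library kit does not mark strand, so reads of the overlap cannot be told apart.

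Slc7a5 (chr8:121881150-121907694, minus strand), the light chain LAT1, went the other way. It had 9.54 and 13.3 CPM in M1 and 25.4 and 24.2 CPM in M2, a log2 fold change of -1.13 with a standard error of 0.13 (edgeR adjusted p = 5.51e-06). The M1 libraries differed by 0.484 on the log2 scale, and both remained below M2. Slc7a6, the light chain y+LAT2, had 15.1 and 19.2 CPM in M1 and 15.9 and 18.2 CPM in M2. These groups overlap, the call was negative (edgeR adjusted p = 0.978), and its log2 fold change was 0.02 with RLE scaling and -0.45, called lower in M1, with scaling by library totals. Slc7a10, a further light chain, had no count in any library. Slc7a15 had 5 counts over M1 and 29 over M2, and passed the filter through M2 alone.

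Levels were compared between genes as RPKM, the CPM per kilobase of annotated exon, which rest on the merged exon length of each gene. Summed over Slc7a5, Slc7a6, Slc7a7, Slc7a8, Slc7a10 and Slc7a11, the light chains had 142 and 132 RPKM in M1 and 24.1 and 24.6 RPKM in M2. Slc3a2 had 212 and 214 RPKM in M1 and 110.4 and 109.6 RPKM in M2. The light-to-heavy ratio of these RNA levels was 0.672 and 0.618 in M1 and 0.219 and 0.224 in M2, a ratio within each library that no scaling between libraries alters. Slc7a11 made up 48.7% and 47.7% of the light-chain sum in M1 and 5.43% and 5.19% in M2. Slc7a5 made up 1.81% and 2.72% of it in M1 and 28.4% and 26.5% in M2. The share of Slc7a8 was 41.2% and 40.8% in M1, against 37.5% and 36.8% in M2, so its level differed far more than its share.

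**Figure D2:**
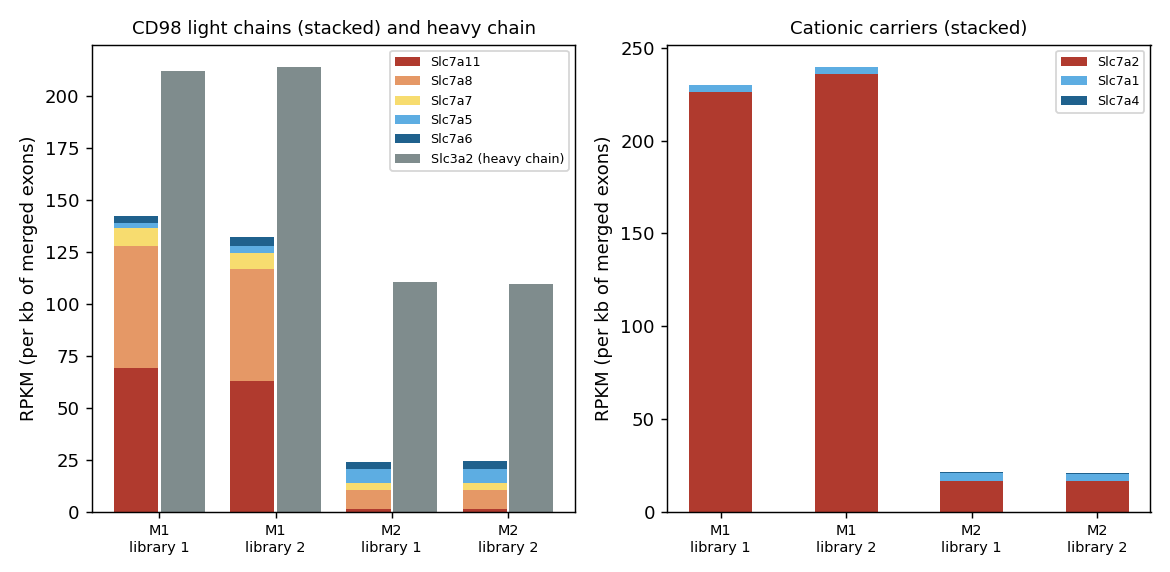
RPKM of the CD98 light chains beside the heavy chain Slc3a2, and of the cationic amino acid carriers, in each of the 4 libraries. In M1 Slc7a11 and Slc7a8 fill most of the light-chain sum and Slc7a2 nearly all of the cationic sum, while in M2 both sums are smaller and more evenly divided.

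Among the cationic amino acid carriers, which bring arginine, lysine and ornithine into the cell, Slc7a2 was the one higher in M1. It was the most abundant of all members there. Slc7a1, the widely expressed arginine carrier, was not called. The other 3 tested members of this group, Slc7a3, Slc7a4 and Slc7a14, passed the filter through M2 alone.

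Slc7a2 (ENSMUSG00000031596, chr8:40862396-40922308, plus strand) encodes CAT2, the inducible cationic carrier. It had 2067 and 2153 CPM in M1 and 152 and 150.02 CPM in M2, with the M1 libraries far above both M2 libraries. It was 14.0-fold higher in M1, a log2 fold change of 3.80 with a standard error of 0.08 (edgeR adjusted p = 1.34e-15). Exons of the opposite-strand gene Gm26584 cover 6.95% of its exon length. Slc7a1 (CAT1) had 39.2 and 46.6 CPM in M1 and 49.7 and 45.3 CPM in M2. Its groups overlap and its log2 fold change of -0.15 was not called (edgeR adjusted p = 0.125), although it was called lower in M1 under scaling by library totals or upper quartiles, with no filter, and without the second M1 library.

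Slc7a4, a SLC7 protein with no settled substrate, had 4 counts over M1 and 178 over M2. The pooled ratio of M2 over M1 was 30.9, with an exact 95% interval of 11.9 to 115 for counting error only. It passed the filter through M2 alone, and 13.3% of its exon length is shared with the opposite-strand gene P2rx6. Slc7a14, reported as a lysosomal member, had no count in M1 and 29 over M2, at least 6.71-fold lower in M1 with M1 set at a floor of 3 counts for the group. Slc7a3 (CAT3) had 30 counts in each group and was not called.

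In RPKM, the cationic carriers summed to 229.9 and 239.8 in M1 and 21.7 and 21.1 in M2. Slc7a2 made up 98.4% and 98.3% of this sum in M1 and 77.0% and 78.0% in M2. Slc7a1 made up 1.48% and 1.69% in M1 and 19.9% and 18.7% in M2. Slc7a2 thus led the group in both states, with most of the remainder in M2 being Slc7a1.

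Slc1a4 and Slc1a5 of the SLC1 family were lower in M1. The family holds the neutral amino acid exchangers ASCT1 and ASCT2 and the glutamate carriers. Slc1a5 (ASCT2, chr7:16781340-16798274, plus strand), which exchanges glutamine and other neutral amino acids, had 8.37 and 8.62 CPM in M1 and 63.4 and 63.5 CPM in M2. It was 7.47-fold lower in M1, a log2 fold change of -2.90 with a standard error of 0.08 (edgeR adjusted p = 2.79e-14), and its replicates lay close together in both groups. Slc1a4 (ASCT1), whose promoter is printed above, had 2.26 and 2.72 CPM in M1 and 7.78 and 7.33 CPM in M2, a log2 fold change of -1.60 with a standard error of 0.15 (edgeR adjusted p = 9.98e-08). The glutamate carrier Slc1a6 had 3 counts over M1 and 81 over M2, a pooled ratio of M2 over M1 of 18.7 with an exact 95% interval of 6.19 to 92.8, and passed the filter through M2 alone. The other glutamate carriers were too low to test, and their counts are given after being seen: Slc1a1 had 2 counts over M1 and 21 over M2, Slc1a2 24 and 9, Slc1a3 7 and 2, and Slc1a7 none.

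The SLC6 family holds sodium- and chloride-coupled carriers of neutral amino acids, taurine, creatine, betaine and transmitters, and its members differed in both directions. Slc6a19 (ENSMUSG00000021565, chr13:73679745-73704865, minus strand) encodes B0AT1, the neutral amino acid carrier known from kidney and intestine. It had 914 and 699 counts in M1 and 3 and 2 counts in M2, or 31.3 and 28.4 CPM in M1 and 0.0957 and 0.0434 CPM in M2. Its M1 values were well above the filter and its M2 values near 0. The pooled ratio of M1 over M2 was 465, with an exact 95% interval of 199 to 1433 for counting error only. The fitted log2 fold change was 8.77 with a standard error of 0.21 (edgeR adjusted p = 7.87e-15). It is the 1 member that passed the filter through M1 alone.

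The GABA and taurine carrier Slc6a13 had 3.40 and 2.72 CPM in M1 and 0.383 and 0.412 CPM in M2, a log2 fold change of 2.93 with a standard error of 0.27 (edgeR adjusted p = 8.19e-08). Slc6a12, the betaine and GABA carrier whose gene lies 5.34 kb away on chromosome 6, had 5.97 and 6.46 CPM in M1 and 7.43 and 7.55 CPM in M2. Its log2 fold change was -0.27 (edgeR adjusted p = 0.0473), so these neighbours had opposite signs, and the call of Slc6a12 was lost under several settings, with an adjusted p of 0.265 in DESeq2.

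Slc6a6 (chr6:91684053-91759066, plus strand), the taurine carrier, had 642 and 564 CPM in M1 and 1041 and 1012 CPM in M2, a log2 fold change of -0.77 with a standard error of 0.08 (edgeR adjusted p = 2.20e-07). Slc6a8 (chrX:73673150-73682502, plus strand), the creatine carrier, had 71.0 and 66.0 CPM in M1 and 270.4 and 279 CPM in M2, 4.01-fold lower in M1 (edgeR adjusted p = 3.52e-13). The groups did not overlap for either gene. The glycine carrier Slc6a9 (GLYT1) had 1.89 and 2.56 CPM in M1 and 3.86 and 4.21 CPM in M2, a log2 fold change of -0.88 (edgeR adjusted p = 4.49e-04), and shares 27.8% of its exon length with the opposite-strand gene Ccdc24. The serotonin carrier Slc6a4 had 10 counts over M1 and 27 over M2, passed the filter through M2 alone and was not called.

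SLC36 and SLC38 hold carriers of the lysosome and of the plasma membrane. Slc36a1, Slc36a4, Slc38a7, Slc38a9 and Slc38a10 were lower in M1, Slc38a1 and Slc38a2 were higher in M1, and Slc38a6 was not called. Slc36a1 (PAT1, chr11:55204350-55236330, plus strand), a proton-coupled carrier, had 27.3 and 24.5 CPM in M1 and 67.1 and 68.2 CPM in M2, a log2 fold change of -1.38 (edgeR adjusted p = 7.47e-11). Slc36a4 (PAT4) had 52.7 and 48.0 CPM in M1 and 90.7 and 88.5 CPM in M2, a log2 fold change of -0.83 (edgeR adjusted p = 1.38e-08). Both were lower in each M1 library than in each M2 library. Slc36a2 (PAT2) had 2 counts over M1 and 47 over M2, a pooled ratio of M2 over M1 of 16.3 with an exact 95% interval of 4.27 to 139, and passed the filter through M2 alone.

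Slc38a9, the lysosomal arginine sensor of the mTORC1 pathway, had 28.7 and 24.3 CPM in M1 and 37.1 and 36.9 CPM in M2, a log2 fold change of -0.48 (edgeR adjusted p = 7.52e-05). Slc38a7, a lysosomal carrier of glutamine and asparagine, had 53.1 and 52.4 CPM in M1 and 64.2 and 58.4 CPM in M2, a log2 fold change of -0.22 (edgeR adjusted p = 0.00824). That call was lost in DESeq2, with an adjusted p of 0.0794, and without the first M2 library, at 0.157 in edgeR. Slc38a10 had 86.7 and 87.4 CPM in M1 and 134 and 127 CPM in M2, a log2 fold change of -0.58 (edgeR adjusted p = 4.19e-07).

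Slc38a2 (SNAT2), a sodium-coupled carrier of small neutral amino acids, had 197 and 209.5 CPM in M1 and 137 and 135 CPM in M2, a log2 fold change of 0.58 (edgeR adjusted p = 5.78e-07). Slc38a1 (SNAT1), whose gene lies 44.5 kb from it on chromosome 15, had 82.1 and 88.3 CPM in M1 and 63.6 and 58.0 CPM in M2, a log2 fold change of 0.49 (edgeR adjusted p = 8.52e-06). Their direction held under every scaling tried, but under scaling by library totals neither was called, with log2 fold changes of 0.13 for Slc38a2 and 0.04 for Slc38a1. The liver system A carrier Slc38a4 had 3 counts over M1 and 40 over M2, a pooled ratio of M2 over M1 of 9.26 with an exact 95% interval of 2.95 to 46.8, and passed the filter through M2 alone. Slc38a6 had 28.4 and 26.7 CPM in M1 and 27.8 and 28.8 CPM in M2, and was not called (edgeR adjusted p = 0.654); its groups overlap, its sign flipped without the second M1 library, and it was called lower in M1 under scaling by library totals or upper quartiles.

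The 2 tested SLC43 members differed in opposite directions. Slc43a2 (LAT4, chr11:75531694-75577575, plus strand), which releases large neutral amino acids by facilitated diffusion, had 79.4 and 71.1 CPM in M1 and 259.9 and 256.9 CPM in M2. It was lower in M1 by a log2 fold change of -1.78 (edgeR adjusted p = 2.36e-12), and 9.18% of its exon length is shared with the opposite-strand gene Gm45606. Slc43a3, a family member known as a purine nucleobase carrier, had 7.34 and 8.62 CPM in M1 and 2.17 and 2.00 CPM in M2, a log2 fold change of 1.94 (edgeR adjusted p = 1.40e-08). Slc43a1 (LAT3) had no count in M1 and 20 over M2 and was not tested. The non-carrier Slc7a6os had 24.5 and 30.2 CPM in M1 and 29.1 and 30.5 CPM in M2, with overlapping groups and no call (edgeR adjusted p = 0.202), though it was called lower in M1 under scaling by library totals or upper quartiles and without the second M1 library. Of the 29 named members, 8 share exon bases with an opposite-strand gene: beside the 5 noted with their gene, these were Slc6a6, Slc38a9 and Slc38a10.

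The 12 members with no count were Slc1a7, Slc6a2, Slc6a14, Slc6a16, Slc6a18, Slc6a21, Slc7a9, Slc7a10, Slc7a12, Slc38a3, Slc38a8 and Slc38a11. The other 17 untested members had counts below the filter, among them Slc1a1, Slc1a2, Slc1a3, Slc3a1, Slc6a3, Slc6a5, Slc6a7, Slc6a11, Slc6a15, Slc6a17, Slc6a20a, Slc6a20b, Slc7a13, Slc36a3, Slc38a5 and Slc43a1. Their lack of a call is a limit of depth and does not show that they are absent.

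**Figure D3:**
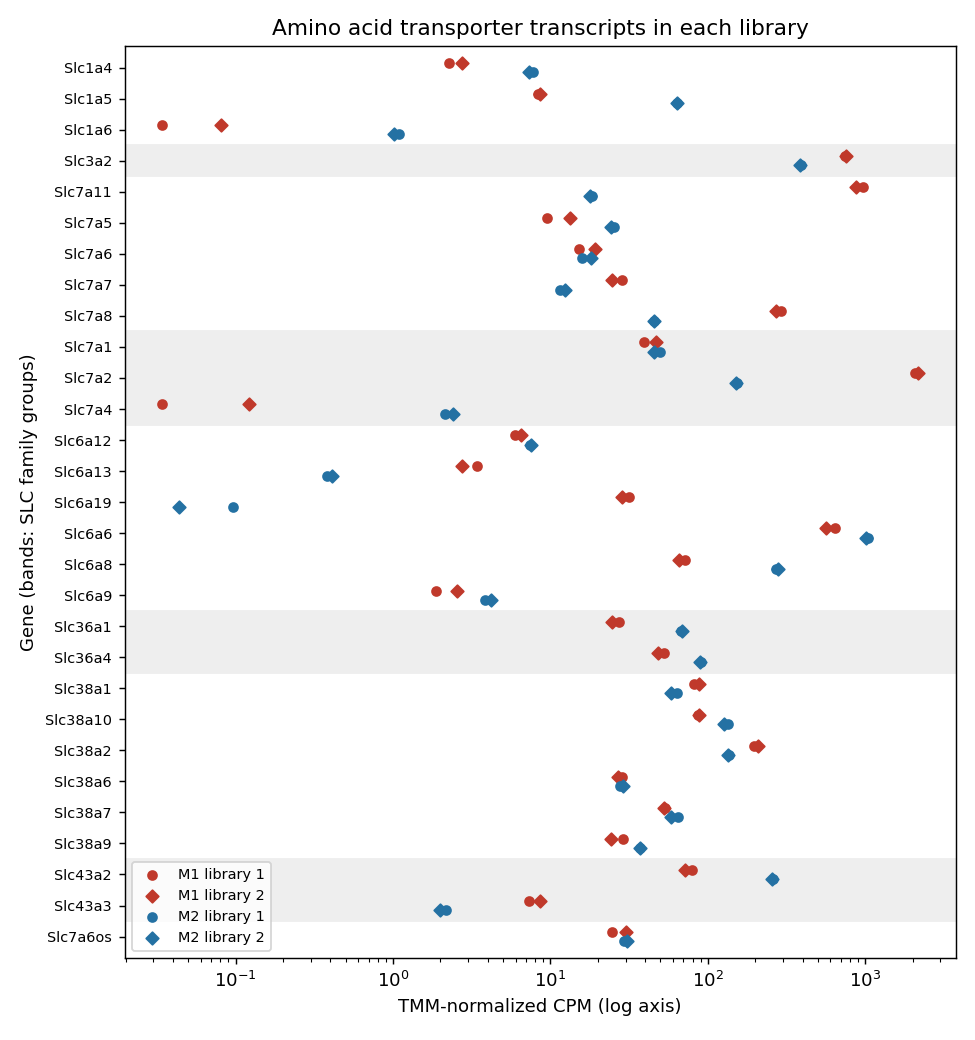
CPM of each named member in each library on a log axis, with M1 in red above M2 in blue within each row and a circle and a diamond for the 2 libraries of a group. The 2 libraries of a group lie close together for most members, and the groups overlap for Slc7a6, Slc7a1, Slc38a6 and Slc7a6os.

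Read per kilobase, the order of the members differed between the states. In M1 Slc7a2 led at 231 ± 6.61 RPKM, followed by Slc3a2 at 213 ± 1.53, and the next were Slc6a6 at 71.3, Slc7a11 at 66.2, Slc7a8 at 56.3 and Slc38a2 at 23.0 RPKM (SD, n = 2). In M2 Slc6a6 led at 121 ± 2.49 RPKM, followed by Slc3a2 at 110.0 ± 0.587, and the next were Slc6a8 at 52.7, Slc43a2 at 25.7, Slc38a10 at 20.3 and Slc7a2 at 16.6 RPKM (SD, n = 2). Slc7a11 stood at rank 23 in M2, at 1.29 RPKM. In M1 the libraries of Slc6a6 and Slc7a11 overlapped, so their order is not beyond the spread; no other neighbours among the first 5 of either state overlapped.

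Summed over the 64 members, the level was 774 and 766 RPKM in M1 and 473 and 467.5 RPKM in M2. The members took 0.474% and 0.478% of all counts in M1 and 0.353% and 0.347% in M2. Slc7a2 alone was 29.3% and 30.8% of the members' RPKM in M1 and 3.52% and 3.51% in M2. Slc6a6 was 9.81% and 8.70% of it in M1 and 26.0% and 25.6% in M2, and Slc6a8 was 1.76% and 1.65% in M1 and 11% and 11.5% in M2. A higher sum in M1 thus stood beside more members called lower than higher in M1. That balance counts members that passed the filter through 1 group alone, mostly M2, so nothing is drawn from it.

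**Figure D4:**
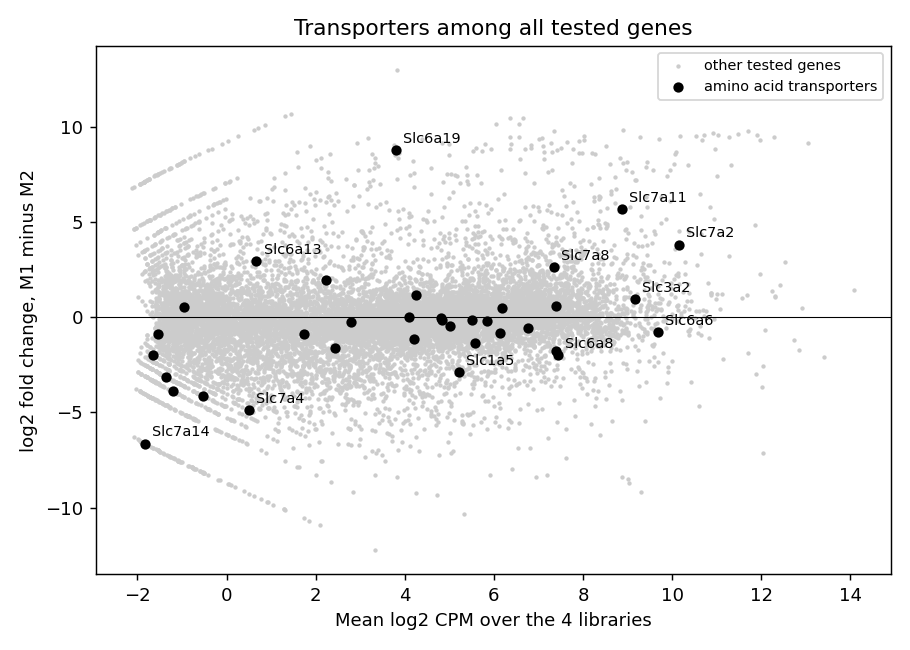
Log2 fold change of M1 over M2 against mean log2 CPM for all 14656 tested genes, with the 35 tested members marked. The members lie on both sides of 0, and Slc7a14, which has no count in M1, is drawn at its fitted value.

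Genes that use, sense or otherwise carry amino acids were counted in 7 lists, beside 37.5% higher and 39.7% lower over all tested genes. Arginine use had 7 higher in M1, 4 lower and 1 not called of 12 tested, with a median log2 fold change of 0.29 against -0.04 over all genes; under scaling by library totals it had 5 higher and 6 lower. Nos2, which makes nitric oxide from arginine, had 7642 ± 550 CPM in M1 and 10.1 ± 0.641 CPM in M2 (SD, n = 2 each). Azin1, an activator of ornithine decarboxylase, was also higher in M1, and the polyamine enzymes Sms and Sat1 were lower in M1. Cystine use and glutathione had 7 higher in M1, 3 lower and 6 not called of 16 tested, with a median of 0.14; it had 7 higher and 6 lower under upper-quartile scaling and 7 higher and 7 lower under scaling by library totals. Txn1 (thioredoxin) had 932 ± 10.4 CPM in M1 and 253 ± 11.05 CPM in M2, and Hmox1 (heme oxygenase 1) 1828 ± 168 CPM in M1 and 417 ± 9.33 CPM in M2. The glutathione peroxidases Gpx1 and Gpx4 were lower in M1, with log2 fold changes of -2.70 for Gpx1 and -1.05 for Gpx4.

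Glutamine and glutamate use had 4 higher in M1 and 12 lower of 16 tested, with a median log2 fold change of -0.70. Glul, glutamine synthetase, had 15.7 and 16.3 CPM in M1 and 157 and 155 CPM in M2, and Glud1, glutamate dehydrogenase, 184 ± 1.60 CPM in M1 and 293 ± 4.75 CPM in M2. Got1, a cytosolic aminotransferase, was higher in M1 at 211 ± 11.1 CPM, against 63.5 ± 2.16 CPM in M2. Branched-chain amino acid breakdown had 1 higher in M1, 8 lower and 5 not called of 14 tested, with a median of -0.32, and had 13 lower under scaling by library totals. Ppm1k, the phosphatase that activates the branched-chain keto acid dehydrogenase, was the 1 higher in M1, while the aminotransferase Bcat2 and the kinase Bckdk were lower in M1.

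The ATF4 amino acid response list had 10 higher in M1, 8 lower and 2 not called of 20 tested, with a median of 0.15; under scaling by library totals it had 7 higher and 10 lower. Atf4 itself had 388 ± 3.95 CPM in M1 and 238 ± 0.0403 CPM in M2 and Cebpb 372 ± 29.4 CPM in M1 and 135 ± 1.93 CPM in M2. Atf5 had 65.6 ± 4.25 CPM in M1 and 203 ± 5.22 CPM in M2, and Atf3 was lower in M1 by a log2 fold change of -0.32. The mTORC1 amino acid sensing list, which holds the Rag GTPases and their regulators, had 10 higher in M1, 11 lower and 6 not called of 27 tested, with a median of -0.12; it had 6 higher and 15 lower under upper-quartile scaling and 4 higher and 18 lower under scaling by library totals. Rraga and Rheb were higher in M1, by 0.21 and 0.35 on the log2 scale, and Rragc and Fnip2 were lower, with log2 fold changes of -0.45 and -0.56. Amino acid carriers outside the 7 families had 6 higher in M1, 7 lower and 1 not called of 14 tested, with a median of -0.24. Slc15a3, a lysosomal histidine and peptide carrier, had 1790.5 ± 51.6 CPM in M1 and 390.5 ± 1.57 CPM in M2, and the mitochondrial glutamate carrier Slc25a22 174 ± 5.22 CPM in M1 and 33.5 ± 1.48 CPM in M2. Mfsd12, which brings cysteine into lysosomes and melanosomes, was lower in M1 at 86.6 ± 5.91 CPM, against 627 ± 0.424 CPM in M2.

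**Figure D5:**
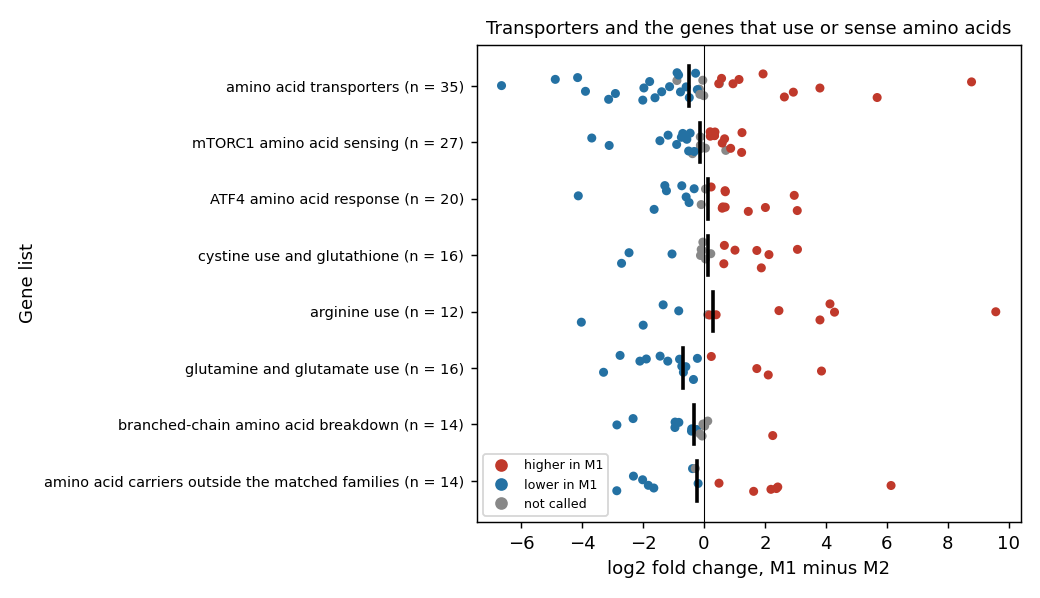
Log2 fold change of M1 over M2 for each tested member and each tested gene of the 7 lists, coloured by call, with a black bar at the median of each list. In glutamine and glutamate use and in branched-chain amino acid breakdown most points lie below 0, and in arginine use more points are called above 0 than below, a balance that turned under scaling by library totals.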

How the data were processed

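Poly(A) RNA of 4 macrophage libraries was sequenced, per the labels' protocols, with a kit that does not mark strand. The authors deposited whole-number read counts per gene, not normalized. The submitters' processing notes name GRCm38 as the build, and, among tools, STAR 2.5.2b, Subread 1.5.2 with featureCounts, Trimmomatic 0.36, DESeq and DESeq2. Roles, settings and annotation release: not given in the sources used here. A separate comparison table was not used.

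Symbols, coordinates and exon lengths came from GENCODE vM21 (GRCm38) by Ensembl ID, with 49056 of 49315 IDs matched; the rest held 0.00628% to 0.011% of a library's counts. Counts were filtered with filterByExpr (minimum 10 in a library, 15 in all), scaled by TMM and tested with edgeR 4.0.16's quasi-likelihood test (R 4.3.3) on all genes, with Benjamini-Hochberg adjustment at 0.05. Standard errors are the log2 fold change over the root of F. CPM use TMM-scaled totals, and RPKM divide these by kilobases of merged exon. Members with under 1 CPM in both groups were not named, except where their counts are given, which for untested members was decided after seeing them. Of each list, up to 2 called genes each way with the highest mean CPM were named; a few items are not reported here. Pooled count ratios have exact 95% intervals. Alternatives were RLE, upper-quartile and total-count scaling, no filter, DESeq2 1.42.0 and each library left out. The members and lists were chosen with earlier results of these data known. Library totals of 26806370 to 39506242 counts limit precision for genes with few counts.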

Additional observations from a re-analysis of the deposited data

How the results depend on the processing

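With only 2 libraries a group, each of these settings tests the same 4 libraries. Under total-count scaling 3343 of all tested genes were called higher in M1, against 5495 with TMM scaling; the other counts over all genes stayed within 1.5 times. Of the 29 member calls, 26 to 29 were kept over all settings. Slc7a6, not called with TMM, changed sign to a log2 fold change of 0.022 under RLE scaling and 0.03 in DESeq2. With a library left out, the log2 fold change ran from -0.183 to 0.164 for Slc7a6, from -0.287 to 0.018 for Slc7a6os and from -0.082 to 0.008 for Slc38a6; the cause was not tested. The Slc6a12 call was lost under RLE scaling, in DESeq2 and with 3 of the libraries left out in turn. The median of the members tested in each setting ran from -0.93 under total-count scaling to -0.29 without the second M2 library. The filter was rerun with each library left out, so the members tested there need not be the same 35. Branched-chain amino acid breakdown had 2 genes higher in M1, against 1, under RLE scaling and without either M1 library. A lone library in a group is assumed to vary like the other group. No paired analysis was possible because the replicate numbers were given in accession order and pair nothing.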

Other observations

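The 2 M1 libraries differed more than the M2 libraries over all genes, with chi-square over degrees of freedom at 13.3 in M1 and 2.3 in M2. Among the 29 named members the second library was higher than the first for 16 in M1 and 11 in M2.

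Members next to each other in gene order and within 500 kb formed 14 pairs. Pairs with another member between them were not counted. Slc36a1 and Slc36a2, 19.3 kb apart, were both lower in M1, Slc36a2 having passed the filter through M2 alone, and Slc7a7 and Slc7a8, 304 kb apart on chromosome 14, were both higher in M1. Slc38a1 and Slc38a2, 44.5 kb apart, were also both higher in M1. Slc38a2 and Slc38a4, 295 kb apart, had opposite calls, Slc38a4 having passed the filter through M2 alone. Slc6a12 and Slc6a13 differed in sign, though the Slc6a12 call was lost under several settings. Slc6a18, 1.72 kb from Slc6a19, had no count in any library.

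Slc3a1, the heavy chain of the renal cystine carrier, had 20 counts over M1 and 3 over M2, a pooled ratio of M1 over M2 of 9.60 with an exact 95% interval of 2.85 to 50.5, and was below the filter. The opposite-strand gene Prepl overlaps 26.5% of its exon length and had 2507 counts over all libraries, against 23 for Slc3a1. Whether the Slc3a1 counts hold reads of Prepl was not tested, so nothing is drawn from the ratio.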
